A study of Rattus norvegicus with 7 samples.

Results

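Among the features lowered in the injured rat cortex were 3 cDNA clones of synaptic or neuronal proteins, which make up 3 of the 6240 features of the array. RNABT01 is listed as brain-enriched guanylate kinase-associated protein 1, RGIAN17 as CDCrel-1A and RNABY86 as cpg2. The 3 were picked by clone ID, with their values on these 7 arrays already known: RNABT01 and RGIAN17 as lowered at 4 days post injury (dpi), and RNABY86 as lowered at 1 and at 4 dpi. The values that led to this choice are therefore given as a description and without a test. The study lists RNABY86 under 1 dpi and reports no lowered gene shared by 1 and 4 dpi. That RNABY86 also counts as lowered at 4 dpi rests on the limma call used here and differs from the study. The reason for this difference was not tested.

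Contusions had been made in the cerebral cortex of male Sprague Dawley rats with a weight-drop device, and total RNA of the ipsilateral, injured cortex was compared with that of the contralateral, uninjured cortex of the same animal. Each array held the RNA of 1 animal, with 3 animals at 1 dpi and 4 other animals at 4 dpi. The injured cortex was labelled with Cy5 on 2 arrays and with Cy3 on 1 array at 1 dpi, and with each dye on 2 arrays at 4 dpi. All animals were injured, so the uninjured hemisphere of an injured animal was the control throughout, and sham-operated animals were not among the arrays. The age of the rats is not given in the sources used here.

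Every value is a log2 ratio of injured to uninjured cortex, so that a negative value stands for a transcript below the uninjured side. A ratio gives no level, and the tissue could not be checked against the level of its markers. Since the tissue was bulk cortex, fewer cells of a type and less RNA per cell cannot be told apart. Between 2332 and 5208 features had a value on each array, with the fewest on replicate 3 of 4 dpi, and the median of all features tested was 0.01 at 1 dpi and -0.01 at 4 dpi. A feature was called lowered or raised at an adjusted p of 0.02 or less (limma) and a mean beyond 0.7 on the log2 scale, which was met in the lowered direction by 75 of 4952 features at 1 dpi (1.51%) and by 12 of 3191 at 4 dpi (0.376%).

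The synapse depends on scaffold proteins below the postsynaptic membrane, on proteins that govern the release of transmitter from vesicles and on the recycling of receptors at the spine. The 3 clones fall on these different sites of the synapse. In the RefSeq gene table of the rat assembly GRCr8, all 3 of 3 were found. RNABT01 matched Begain, a protein of the postsynaptic density that binds the guanylate kinase domain of PSD-95. RGIAN17 matched Septin5 by a synonym. Septin5 is a filament-forming GTPase that associates with synaptic vesicles. The same table entry also carries GPIb-beta as a synonym. RNABY86 matched Syne1 by the synonym CPG2. The table lists 34 transcripts of Syne1, and the clone may also detect others than CPG2, which was not tested. CPG2 is a brain product of this large gene, found at the spine, where it takes part in the endocytosis of glutamate receptors, and it was first known as a candidate plasticity gene induced by activity. The 3 are called Begain, Septin5 and cpg2 here.

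Promoter sequence was at hand for Begain alone among the 3. It is shown because Begain and Septin5 were the pair of clones whose ratios ran closest together, as described below. RefSeq on GRCr8 gives 2 start sites for Begain on the minus strand of chromosome 6, and the 250 bases before each are printed 5′ to 3′ with every GGGCGG, the GC box, in capitals.
Begain, chr6:133744231-133744480, minus strand: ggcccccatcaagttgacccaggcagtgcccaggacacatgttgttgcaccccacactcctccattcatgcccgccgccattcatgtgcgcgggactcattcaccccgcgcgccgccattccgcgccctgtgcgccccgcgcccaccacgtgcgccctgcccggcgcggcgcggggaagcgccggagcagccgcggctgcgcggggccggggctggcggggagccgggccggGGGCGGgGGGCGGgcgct
Begain, chr6:133729757-133730006, minus strand: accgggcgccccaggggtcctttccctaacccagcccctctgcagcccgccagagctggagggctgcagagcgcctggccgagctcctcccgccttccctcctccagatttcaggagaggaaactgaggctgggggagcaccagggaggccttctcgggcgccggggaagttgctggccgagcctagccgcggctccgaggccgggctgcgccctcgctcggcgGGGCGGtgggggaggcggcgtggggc
Matches were counted on both strands. The first window held 2 GC boxes and the other held 1, and 30.5% of all promoter windows of this length in the table held at least 1. The GC content was 76.8% and 74%, against a median of 51.2% over 33469 windows. Neither window held the CCAAT box, present in 34.0% of all windows. Neither held TGACG, the core of the cyclic AMP response element, present in 18.2%. Neither held the TATA box, searched as TATAAA and present in 12.9%. A match is a run of letters and no measured binding site, and the array does not tell from which start the transcript came.

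At 4 dpi all 3 clones were below 0 on every array, as were 21.1% of all features tested. Begain was modestly below the uninjured side at 1 dpi and further below it at 4 dpi on most arrays. Its ratios at 1 dpi were -0.58, -0.16 and -0.18, with a mean of -0.31 ± 0.23 (SD, n = 3). At 4 dpi they were -0.76, -0.55, -1.20 and -0.77, with a mean of -0.82 ± 0.28 (SD, n = 4), or 56.7% of the uninjured side. Replicate 1 was the low array of 1 dpi and replicate 2 the high array of 4 dpi, and these were the values through which the groups overlapped, since 3 of the 4 late arrays lay below all early ones. Over all features tested at both times, 9.07% had every late array below every early one, which held for 0 of the 3 clones. The difference was -0.51 (SE 0.17), at place 113 of 3188.

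Septin5 showed a similar course with a smaller step. The ratios were -0.62, -0.32 and -0.33 at 1 dpi, with a mean of -0.43 ± 0.17 (SD, n = 3). At 4 dpi they were -0.79, -0.73, -1.11 and -0.58, with a mean of -0.80 ± 0.22 (SD, n = 4), or 57.4% of the uninjured side. Again 3 of 4 late arrays lay below all early arrays, and the highest late array, replicate 4, fell within the early range. The difference was -0.38 (SE 0.15), at place 228 of 3188.

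The cpg2 clone was as low at 1 dpi as at 4 dpi. Its ratios at 1 dpi were -0.79, -0.84 and -0.64, and their mean of -0.75 ± 0.10 (SD, n = 3) is 59.3% of the uninjured side. The spread over these animals was the smallest of the 3 clones. At 4 dpi the ratios were -0.39, -0.57, -1.26 and -0.83, with a mean of -0.76 ± 0.38 (SD, n = 4), or 58.9%. The late arrays enclosed the early ones, with replicates 1 and 2 above all 1 dpi values, replicate 4 within their range and replicate 3 below them. The difference of -0.01 (SE 0.19) stood at place 1515 of 3188, near the middle of all features.

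**Figure D1:**
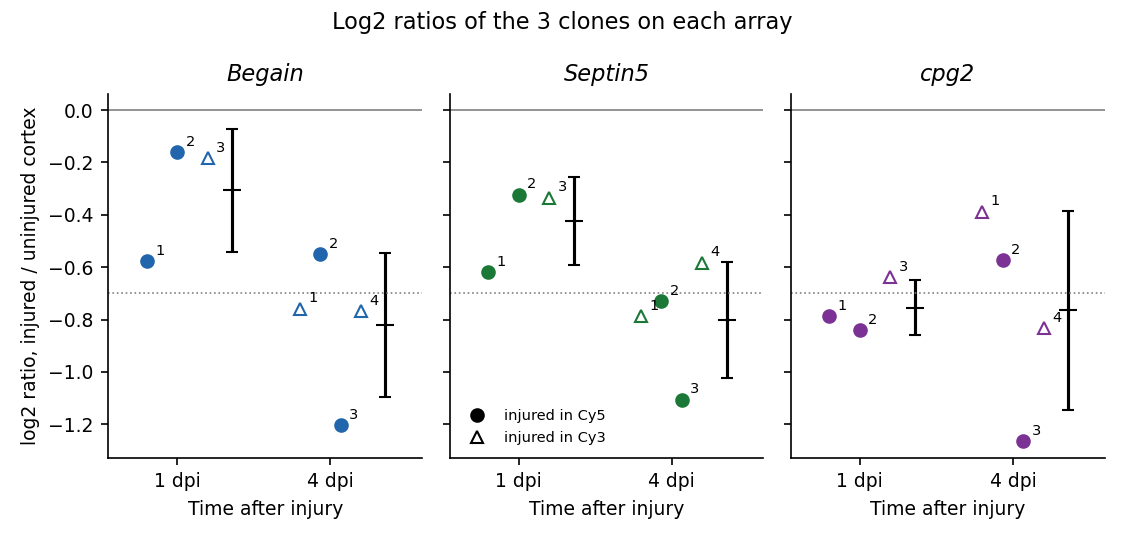
Log2 ratio of injured to uninjured cortex (y axis) of each of the 3 clones on each array at 1 and 4 dpi (x axis), with the replicate number beside each point, filled circles for arrays with injured cortex in Cy5 and open triangles for Cy3. Bars give the mean ± SD, the dotted line marks -0.7, and 3 of the 4 arrays of 4 dpi lie below all 3 of 1 dpi for Begain and for Septin5, whereas those of cpg2 spread on both sides of the early values.

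The order of the 3 clones thus differed between the times. On all 3 arrays of 1 dpi, cpg2 had the lowest ratio of the 3 and Begain the highest. At 4 dpi the lowest clone was Septin5 on replicates 1 and 2 and cpg2 on replicates 3 and 4. At 4 dpi the means lay between -0.82 and -0.76, and the neighbours in the order, Begain, Septin5 and cpg2, differed by less than the SD of either. At 1 dpi the order ran from cpg2 at -0.75 over Septin5 at -0.43 to Begain at -0.31. There the step from cpg2 to Septin5 exceeded both SDs and the other step did not. These orders are descriptive, since the clones were chosen for such calls.

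At 1 dpi Begain and Septin5 were below 0 on 3 of 3 arrays. Over all features tested at 1 dpi, 26% were below 0 on every array with a value. The study lists both clones under 4 dpi and not under 1 dpi, so that no test of their 1 dpi means is given.

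Begain and Septin5 ran closest together among the 3. Over the 7 arrays their ratios differed by a root mean square of 0.14 (Pearson r = 0.94), and no feature among 2189 with a value on all arrays was nearer to either. The cpg2 clone differed by 0.31 from Septin5 (r = 0.38) and by 0.35 from Begain (r = 0.47). At 4 dpi alone, over 4 arrays, r was 0.81 for Begain with Septin5, 0.84 for Begain with cpg2 and 0.62 for Septin5 with cpg2. These are descriptions over arrays that share their dyes and depth across clones. Begain and Septin5 were both picked as lowered at 4 dpi, and cpg2 as lowered at both times. Their likeness thus follows in part from the choice.

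Outside the 3, the clones with the nearest pattern were found by the same measure. The CaM-KII inhibitor, which binds and blocks the calcium-dependent kinase of the postsynaptic density, was the next named clone after Septin5 to Begain, at a root mean square difference of 0.17, with means of -0.44 at 1 dpi and -0.76 at 4 dpi. Smooth muscle-associated cell protein 8 followed at 0.21, with means of -0.37 and -0.71. The same clones were the next named ones after Begain to Septin5, smooth muscle-associated cell protein 8 at 0.17 and the CaM-KII inhibitor at 0.18. For cpg2 the nearest named clones were beta-1,3-glucuronyltransferase 1 at 0.22, an enzyme of carbohydrate synthesis on glycoproteins, with means of -0.84 and -0.59, and protein disulfide isomerase A3 at 0.26, a folding enzyme of the endoplasmic reticulum, with means of -0.88 and -0.54.

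Replicate 3 of 4 dpi was the lowest late array for all 3 clones. It was also the array with the fewest values, and 8 of the 12 features lowered at 4 dpi had their lowest value there. Its features had the widest spread, with a median absolute deviation of 0.243. On replicates 1, 2 and 4 of 4 dpi this was 0.178, 0.161 and 0.225. Over 2269 features with a value on all late arrays, 33.1% were lowest on it, and among the 41 of these with a mean below -0.5 it was 46.3%. Without this array the 4 dpi means were -0.69 for Begain, -0.70 for Septin5 and -0.60 for cpg2. The mean over the 3 clones was -1.19 on this array, and -0.65, -0.62 and -0.73 on replicates 1, 2 and 4. On the early arrays it was -0.66, -0.44 and -0.39.

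At 4 dpi the 3 clones were below 0 in both dye orientations. On the arrays with injured cortex in Cy5 the means were -0.88 for Begain, -0.92 for Septin5 and -0.92 for cpg2. With injured cortex in Cy3 they were -0.76, -0.69 and -0.61 in the same order. Replicate 3 is 1 of the 2 arrays behind each Cy5 mean.

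The 12 features that met the call at 4 dpi included the 3 clones, which follows from how these were picked and is no test of them. The number was 4 without replicate 3, where Begain and cpg2 were no longer beyond the limit of -0.7, and 7 without replicate 4. Others described here were the CaM-KII inhibitor at -0.76 ± 0.19, 90kDa-diacylglycerol kinase, a lipid kinase of second messenger signalling, at -0.74 ± 0.30 and smooth muscle-associated cell protein 8 at -0.71 ± 0.15 (SD, n = 4). Means at 1 dpi were below 0 for 11 of the 12. For the 9 features other than the 3 clones they ran from -0.64 to 0.01. Just inside the limit of -0.7 at 4 dpi lay smooth muscle-associated cell protein 8 and an unnamed clone, RNABV52, both at -0.71. Just outside it lay the unnamed clones RNACD72 at -0.70 and RNABL37 at -0.69 and insulin-like growth factor II at -0.68.

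Single clones of transporters, channels and their regulators were set beside the 3 clones. The study chose them on these same arrays, so their directions are no independent evidence, and they are described one by one with no count over the list.

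Phospholemman is a small membrane protein that regulates ion transport. Its ratios were -1.47, -0.76 and -0.55 at 1 dpi, a mean of -0.92 ± 0.48 (SD, n = 3). At 4 dpi they were 0.14, -0.11 and 0.02 on replicates 1, 2 and 4, a mean of 0.02 ± 0.12 (SD, n = 3). Every late value lay above every early one, as for 10.9% of all features tested at both times, and the difference was 0.94 (limma adjusted p = 0.0311). The call of this difference was lost without replicate 1 or 2 of 1 dpi and without replicate 1 or 4 of 4 dpi. It was also lost with a dye term and with the replicate number as a block, and the adjusted p reached 0.0961 over all alternatives.

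The brain digoxin carrier protein, named after a heart drug, had ratios of -1.80, -1.47 and -0.76 at 1 dpi. At 4 dpi they were 0.69, -0.44, -0.50 and -0.07. The late values lay above all early ones, again as for 10.9% of all features, with a difference of 1.26 (limma adjusted p = 0.0271). That call was lost without replicate 1 or 2 of 1 dpi and without replicate 4 of 4 dpi, at adjusted p up to 0.147 over all alternatives. The H+/peptide transporter 2 had a mean of -1.02 ± 0.38 at 1 dpi and 0.22 ± 0.12 at 4 dpi (SD, n = 3 each), and its difference of 1.23 kept its call under all 11 alternatives (limma adjusted p = 0.0062, up to 0.043). Phospholamban, the inhibitor of the calcium pump of the endoplasmic reticulum, was at -1.24 ± 0.42 at 1 dpi (SD, n = 2) and had a single value of -0.28 at 4 dpi. The glucose transporter type 1, found at the blood-brain barrier, was at 1.04 ± 0.38 and then 0.23 ± 0.48, and the chloride channel ABP at 1.72 ± 0.28 and then 1.25 ± 0.83. The latter was raised at 4 dpi, a call lost without replicate 2, 3 or 4.

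The study lists 7 other clones of synapse and neuronal signalling with a usable ID as lowered, again chosen on these arrays. Where they were tested, their means were below 0 at both times. That direction follows in part from the choice, and the shares below say nothing of synapse clones in general. At 1 dpi 5 of 7 were lowered, against 1.51% of all features, with a list median of -0.84. At 4 dpi 2 of 6 tested were lowered, against 0.376% of all features, with a list median of -0.38. The 5 were the GABA-A receptor delta subunit, which serves tonic inhibition, at -1.11 ± 0.40, the alpha 1 subunit of soluble guanylyl cyclase, the receptor of nitric oxide, at -1.05 ± 0.31 (n = 2), N-copine, a calcium-dependent membrane-binding protein, at -0.85 ± 0.43, the G protein subunit beta 1 at -0.84 ± 0.10 and carbonic anhydrase-related protein 2 at -0.71 ± 0.26 (SD, n = 3 otherwise). Without replicate 2 of 1 dpi, 2 of these were lowered, and without replicate 3, 3 were. With the limit of 0.7 asked of every array, 2 were lowered at 1 dpi and 0 at 4 dpi.

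At 4 dpi the means of N-copine, the G protein subunit beta 1, the guanylyl cyclase subunit and carbonic anhydrase-related protein 2 were -0.38, -0.38, -0.26 and -0.37, none of which was called. The GABA-A receptor subunit had a value of -0.82 on replicate 2 alone. The 2 clones lowered at 4 dpi were the CaM-KII inhibitor and 90kDa-diacylglycerol kinase, at -0.44 ± 0.33 and -0.48 ± 0.22 at 1 dpi. Without replicate 3 of 4 dpi neither was called, and without replicate 1 or replicate 4 only the CaM-KII inhibitor was. In the test of the difference, 1 of 6 was higher at 4 dpi, the guanylyl cyclase subunit, by 0.79 (limma adjusted p = 0.0364), and 0 were lower. Over all features tested, 3.48% were higher and 1.51% lower in this test. That call was lost without replicate 1 or 2 of 1 dpi, without replicate 1 or 4 of 4 dpi and with scaling, at adjusted p up to 0.289. The differences of the 6 had a median of 0.40 and ran from -0.32 to 0.79, and those of Begain and Septin5 were -0.51 and -0.38. Both of the latter were picked as lowered at 4 dpi. The CaM-KII inhibitor and 90kDa-diacylglycerol kinase, also lowered then, were at -0.32 and -0.26, neither of which passed the test. The clones were chosen on these arrays, some for 1 dpi and some for 4 dpi, and nothing is read from the distance between them.

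**Figure D2:**
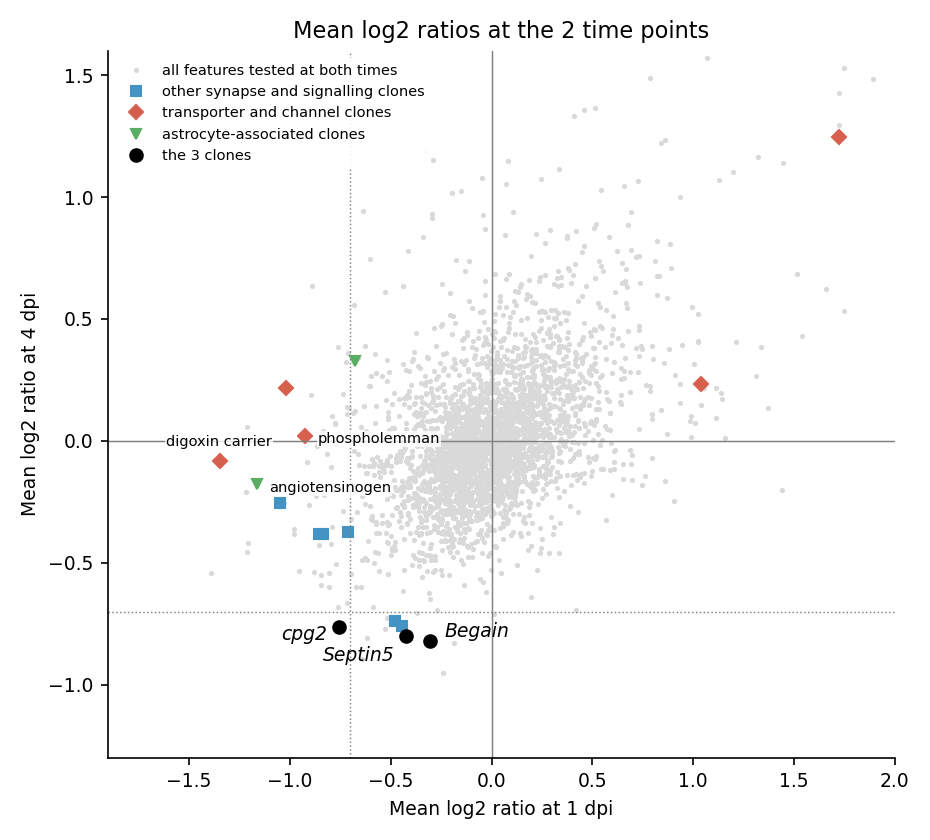
Mean log2 ratio at 1 dpi (x axis) against that at 4 dpi (y axis) of the 3188 features tested at both times (grey, of which 18 lie outside the axes), with the 3 clones in black and other clones of the lists in colour, and dotted lines at -0.7. Begain and Septin5 lie below the late limit and to the right of the early one, cpg2 lies beyond both, and phospholemman, the digoxin carrier and angiotensinogen lie beyond the early limit with late means of 0.02, -0.08 and -0.18.

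The study names 11 neuropeptide and activity-regulated clones as raised. The activity-regulated ones, such as c-jun, are not specific to neurons. The list includes cpg21, which like cpg2 was isolated as a candidate plasticity gene and encodes a MAP-kinase phosphatase. At 1 dpi cpg21 had ratios of 2.30, 2.26 and 1.43, with a mean of 2.00 ± 0.49 (SD, n = 3), on the same arrays on which cpg2 lay between -0.84 and -0.64. At 4 dpi cpg21 had a value on replicate 2 alone, at 0.49, against -0.57 for cpg2. Of the 11 clones 8 were raised at 1 dpi, where 3.9% of all features were, with a list median of 1.44. At 4 dpi 2 of 8 were raised, against 2.63% of all features, with a list median of 0.60. Those 2 were neuropeptide Y and orexin, and with the limit of 0.7 asked of every array 1 was left. Neuropeptide Y, a peptide of cortical interneurons, had means of 1.45 ± 0.27 and 1.14 ± 0.75, and its call at 4 dpi was lost without replicate 2, 3 or 4. Orexin was at 1.75 ± 0.39 (n = 2) and 2.94 ± 0.94. Cholecystokinin, another interneuron peptide, was at 0.87 ± 0.22 and 0.59 ± 0.39, the latter not called. The neuron specific gene family member was at 0.66 ± 0.16 and 0.65 ± 0.10, above 0 on every array and called at neither time.

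Clones of other cell types moved on the same arrays as the 3 clones, and their part in the results was not tested. The study chose these clones on the same arrays, so their shares beside those of all features are no test of a cell type. Of 9 phagocyte and reactive cell clones, 8 were raised at 1 dpi and 7 of 7 tested at 4 dpi, against 3.9% and 2.63% of all features. With single arrays left out, 6 to 8 were raised at 1 dpi and 6 to 7 at 4 dpi. All 9 clones were above 0 on every array with a value, and their mean per array ran from 1.22 to 1.80 at 1 dpi and from 1.61 to 3.00 at 4 dpi. These means rest on 8 or 9 clones at 1 dpi and on 9, 9, 6 and 7 clones on replicates 1 to 4 of 4 dpi. Over the 6 clones with a value on all late arrays, they were 2.01, 2.38, 3.00 and 2.75 on these replicates. The highest late mean was on replicate 3, the array with the lowest mean of the 3 clones. The highest late value was on replicate 1 for cpg2, on replicate 2 for Begain and on replicate 4 for Septin5. At 1 dpi replicate 3 had both the highest phagocyte mean and the highest mean of the 3 clones, and replicate 1 had the lowest of both. Of 3 oligodendrocyte clones, 1 was lowered at 1 dpi, a call lost without replicate 1 or 2, with a dye term and with the limit of 0.7 asked of every array, and 2 were raised at 4 dpi, against 1.51% of all features lowered at 1 dpi and 2.63% raised at 4 dpi. The mean per array ran from -0.13 to 0.10 and then from 0.18 to 0.76. Without replicate 3 or 4 of 4 dpi, or with the limit on every array, the call of transferrin and that of the myelencephalon specific protease were lost.

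The astrocyte list held 2 usable clones, angiotensinogen and apolipoprotein E. Of these 1 was lowered at 1 dpi (2 without replicate 2) and 0 at 4 dpi, against 1.51% and 0.376% of all features. The mean per array of both ran from -1.09 to -0.70 at 1 dpi and from -0.06 to 0.27 at 4 dpi, and both were higher at 4 dpi, by 0.99 and 1.01 (limma adjusted p = 0.00635 and 0.0206), as were 3.48% of all features. The former call was kept under all 11 alternatives, and the latter was lost without any 1 of the 3 early arrays. Their course was upward between the times, while Begain and Septin5 were lower at the later time. The study lists angiotensinogen as lowered at 1 dpi, and Begain and Septin5 were picked as lowered at 4 dpi. Nothing is therefore read from this contrast.

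**Figure D3:**
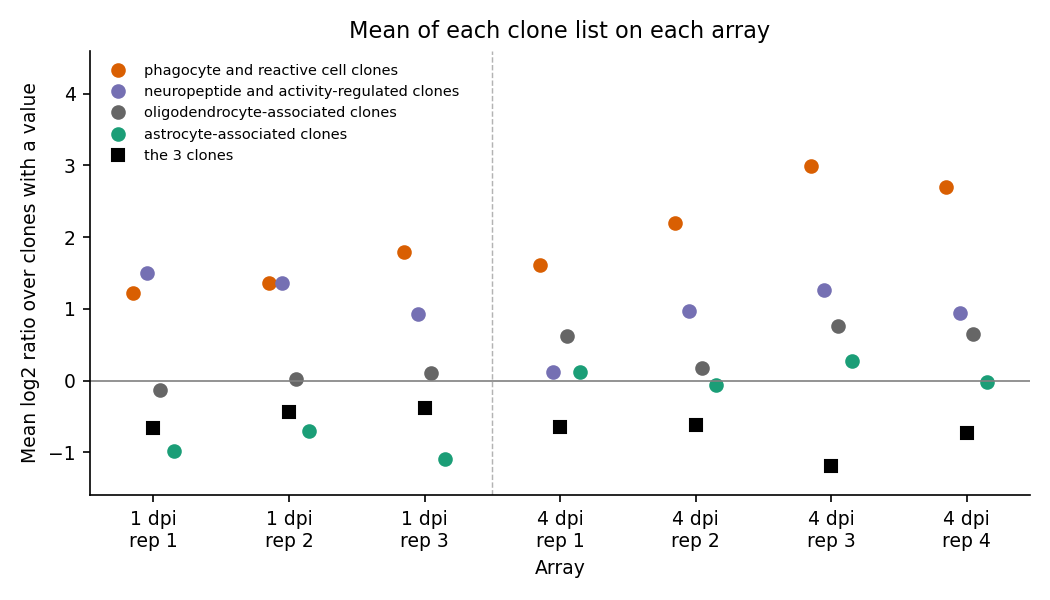
Mean log2 ratio (y axis) over the clones with a value of 4 lists of named clones and of the 3 clones described here (black squares), on each array (x axis), with the time points parted by the dashed line and points set side by side within an array. The phagocyte and reactive cell clones reach 3.00, over 6 clones, on replicate 3 of 4 dpi, where the 3 clones have their lowest mean of -1.19. At 1 dpi replicate 3 has the highest of both means and replicate 1 the lowest of both. The mean of the 3 clones is below 0 on every array.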

How the data were processed

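Cortical RNA from 7 rats had been hybridised to cDNA arrays with 2 dyes, 1 array per animal, and the labels gave the groups. The authors took spot signal over local background, dropped spots less than 2 times background, expressed each as injured over uninjured with swapped dyes allowed for, applied a Lowess normalisation within arrays and deposited log2 ratios. No genome build is named. No spot intensities were used, and the small number of arrays limits the precision.

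The deposited values were fitted in R 4.3.3 by limma 3.58.1 (functions lmFit, then eBayes) against 0 per time point and, for 4 dpi minus 1 dpi, over all 7 arrays. P-values were adjusted (Benjamini-Hochberg) over all features tested. A feature needed values on 2 of 3 arrays at 1 dpi and 3 of 4 at 4 dpi. For a call the adjusted p could be at most 0.02 with a mean beyond 0.7, and for the difference at most 0.05. SAM, the test of the study's methods, served as an alternative, since 3 arrays allow it few sign changes. Likeness was the root mean square difference over 7 arrays.

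The 3 clones and the lists were chosen with earlier results of these data known, and 1 further clone of the choice is not reported here. Names came from the clone lists of the study, whose clones had been selected on the same arrays, and an ID was used where a value under it lay within 0.2 of the listed log2 change (238 of 253). Named here are the 3 clones, the clones of the lists, the 3 named clones nearest to each of the 3, and named clones lowered at 4 dpi. The listed IDs of neuroserpin and aldolase C were not matched and not used. The fits were tested on simulated ratios. Alternatives were SAM, other limits, a dye term, centring, scaling to 1 median absolute deviation, values on every array, the opposite sign for swapped arrays, the replicate number as a block and each array left out. Python 3.11.15 with pandas 2.3.3 and matplotlib 3.10.9 made the tables and figures.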

Additional observations from a re-analysis of the deposited data

Results flagged for a closer look

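The difference between the times was not tested for the 3 clones, which had been chosen on it in part, and none of the 3 had a lone late value. The clones below, from the lists set beside them, differed between 4 and 1 dpi in the limma fit of all 7 arrays, and all come from lists selected on the same arrays.

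Among the transporter and channel clones, the difference was 0.94 for phospholemman (RNABN45), 1.26 for the brain digoxin carrier protein (RNABU18) and 1.23 for the H+/peptide transporter 2 (RNABJ09). Among the synapse and signalling clones it was 0.79 for the guanylyl cyclase alpha 1 subunit (RNABL61). All 4 had higher means at 4 dpi, at 0.02, -0.08, 0.22 and -0.26.

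Among the activity-regulated clones the differences were -0.94 for c-jun (RGIAK48), -1.11 for tissue plasminogen activator (RNABP80) and -1.64 for the nerve growth factor inducible protein PC4 (RNABR40), with adjusted p of 0.0364, 0.0173 and 0.0126. Each of these lost its call without replicate 1 or without replicate 2 of 1 dpi, c-jun and tissue plasminogen activator also with scaling, PC4 also without replicate 4 of 4 dpi, and c-jun also without replicate 1 or 4 of 4 dpi.

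Among the phagocyte and reactive cell clones they were 1.00 for C1q beta (RNABQ08), 0.99 for C1q C (RGIAJ90), 2.34 for osteopontin (RNABT23) and 1.97 for osteoactivin (RGIAR28), of which the last 2 kept their call under all 11 alternatives. The call of C1q C was lost without replicate 1 of 1 dpi, and that of C1q beta without any single array of 1 dpi, without replicate 2 or 4 of 4 dpi and with a dye term. The oligodendrocyte-myelin glycoprotein clone (RNACB85) differed by 0.76, a call lost without replicate 1 or 2 of 1 dpi and without replicate 1 or 4 of 4 dpi, angiotensinogen (RGIAJ86) by 0.99 and apolipoprotein E (RNAB87) by 1.01.

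The class III Fc gamma receptor (RNABC93) was at 0.048 on replicate 1 of 4 dpi, far from 1.51, 1.74 and 1.59 on replicates 2, 3 and 4. This was 1 of 27 groups of 4 arrays examined for a lone value, and chance marks about 1 in 20. On the same array cpg2 was at its highest late value.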

How the results depend on the processing

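The means of the 3 clones kept their sign under the median, equal weight of the dyes, centring, scaling and each array left out. With ratios of dye-swapped arrays given the opposite sign, which undoes the authors' turning of the dyes, the 4 dpi means were -0.057 (Begain), -0.12 (Septin5) and -0.15 (cpg2), the 1 dpi mean of cpg2 was -0.33, and 0 features were called in any direction. With single arrays left out, the 4 dpi means ran from -0.91 to -0.69 (Begain), -0.88 to -0.70 (Septin5) and -0.89 to -0.60 (cpg2). The 1 dpi means ran from -0.38 to -0.17, -0.48 to -0.33 and -0.81 to -0.71. The differences ran from -0.65 to -0.39, -0.47 to -0.28 and -0.14 to 0.16.

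SAM called 82 features lowered and 202 raised at 1 dpi, and 13 and 87 at 4 dpi. A limit of 0.7 on every array left 26 lowered and 112 raised at 1 dpi and 1 and 35 at 4 dpi. Without a limit 136 were lowered at 1 dpi, and 67 lowered and 151 raised at 4 dpi. Scaling gave 20 lowered at 4 dpi. At an adjusted p of 0.02 for the difference, 18 were lower and 55 higher. Leaving out single arrays gave 51 to 103 lowered and 121 to 196 raised at 1 dpi, 4 to 14 and 72 to 108 at 4 dpi, and 7 to 70 lower and 30 to 133 higher for the difference.

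The animals of the 2 times were different ones, so replicate numbers did not pair them. Deviations of same-numbered arrays correlated at -0.17, 0.10 and -0.27. Over all pairs of an early and a late array, the correlations ran from -0.36 to -0.03 with opposite dyes. They ran from -0.10 to 0.40 with the same dye, so these values cannot part pairing from dye. With the replicate block the differences were -0.53, -0.45 and 0.01, 6 features were lower and 24 higher, and 10 of the 14 listed clones with a called difference lost it. Those that kept it were the H+/peptide transporter 2, osteopontin, osteoactivin and angiotensinogen. For the others this loss adds to those given above. Alternatives for single listed clones were added after the data had been seen. Values on 3 and 4 arrays limit all means.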

Other observations

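Several features lowered at 4 dpi carry no usable name. The lowest of these, RNABL84, was at -0.89 ± 0.55 at 4 dpi and -0.64 ± 0.30 at 1 dpi. RNABY04 was at -0.83 ± 0.45 and, at 1 dpi, at -0.19 ± 0.18. RNABV52 was at -0.71 ± 0.32 at 4 dpi (SD, n = 4), and its 1 dpi mean of 0.01 ± 0.31 (SD, n = 3) was, of the 12 lowered features, the only mean not below 0.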
